A study of Mus musculus with 26 samples.

Results

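Trim43a, Trim43b, Trim43c and Trim75 are 4 genes of the tripartite motif (TRIM) family, taken by their names from a table of 55291 genes and followed through all 13 groups of a bulk poly(A) RNA-seq experiment in mouse embryonic stem cells (ESCs). All 4 passed the filter on low counts, together with 20953 genes in all, and they belong to 69 genes in the table whose symbol is Trim followed by a number, of which 57 passed. The genes were grouped under the working name of Dux targets. In these libraries Trim75 was called higher when Dux was overexpressed, whereas none of the Trim43 copies was. Whether Dux acts on any of them directly was not tested, so the genes are called by their symbols here.

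The study asked whether Dux, and the condensates and super-enhancers it forms, are needed for cells to enter a totipotent-like state. R1 is a widely used mouse ESC line, and each of the 13 groups held 2 libraries. Wild-type cells were left untreated (ESC), given DMSO, treated with 0.53 µM retinoic acid for 48 h (RA), or treated with 4 nM pladienolide B, an inhibitor of the spliceosome, for 4 days (PlaB). In wild-type cells carrying an inducible transgene, 24 h of doxycycline at 4 µg/mL switched on Zscan4 (Zscan4 OE), Dux (Dux OE) or the Dux R70A mutant (Dux R70A OE), which the study describes as deficient in phase separation. Cells with Dux knockdown were combined with RA, PlaB or Zscan4 OE (Dux KD RA, Dux KD PlaB, Dux KD Zscan4 OE), and cells lacking a super-enhancer at the Tdpoz locus with RA, PlaB or Dux OE (SE KO RA, SE KO PlaB, SE KO Dux OE). The genotype label of SE KO RA replicate 1 reads WT although its title says SE KO. The treatment label of both Dux KD Zscan4 OE libraries reads "no" and gives no time. The untreated ESC group, the control of the overexpression groups, received no doxycycline. No group held Dux KD or SE KO cells without an induction, and none is labelled as a control for the knockdown. A difference that these cells had before induction therefore cannot be told apart from an effect on the induction. Nothing in the labels says that replicates came from separate cultures, so p-values measure the spread between these libraries only.

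TRIM proteins carry a RING domain, a B-box and a coiled coil, often with a C-terminal SPRY domain, and many act as E3 ubiquitin ligases. Dux is the transcription factor that switches on genes of the 2-cell (2C) embryo, when the mouse zygotic genome is first used, and a small share of cultured ESCs passes through a like state. Zscan4 genes are a hallmark of that state. The Trim43 copies are known from preimplantation mouse embryos, and human TRIM43 is a known target of DUX4, the human counterpart of Dux. Far less is known of Trim75. The study lists it, with Dux, among genes of the early 2-cell embryo that were raised in all the totipotent cell models it compared.

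The Trim43 copies lie on 1 chromosome and are close in sequence, which bears on how their reads can be assigned. In mm10, Trim43a lies at chr9:88580891-88588819 on the plus strand, Trim43c at chr9:88839164-88848190 on the plus strand and Trim43b at chr9:89084624-89092835 on the minus strand. The cluster spans 512 kb, with gaps of 250 kb and 236 kb. Each copy has 7 exons, and the coding sequences hold 445, 446 and 445 codons in Trim43a, Trim43c and Trim43b. The coding sequences were 98.4% identical between Trim43a and Trim43b, 97.8% between Trim43b and Trim43c, and 96.9% between Trim43a and Trim43c. Trim75 lies apart at chr8:64980884-64987831 on the minus strand, with 2 exons and 467 codons. All 4 genes had the same start and end in GENCODE M21.

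The 60 coding bases with the most positions at which the copies are not all alike, 128 to 187 of the coding sequence, are shown. They give an example of what separates the copies, and were chosen over all copies together, not for each pair. Capitals mark the 6 positions at which the copies are not all alike, in the plus sense of each transcript.

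Trim43a: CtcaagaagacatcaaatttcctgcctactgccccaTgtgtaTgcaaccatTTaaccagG
Trim43b: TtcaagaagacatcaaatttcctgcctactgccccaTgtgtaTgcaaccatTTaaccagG
Trim43c: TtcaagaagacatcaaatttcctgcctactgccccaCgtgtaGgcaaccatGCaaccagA

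In this stretch Trim43a and Trim43b part at a single letter, and the other marked positions set Trim43c apart. Over the whole coding sequence Trim43a and Trim43b differ at 21 of 1332 aligned bases. Of all 50-base stretches of the transcripts, 47.2% in Trim43a, 47.8% in Trim43b and 42.2% in Trim43c also occur in another copy. For 150-base stretches the shares were 3.2%, 6.0% and 3.7%. A read inside a shared stretch cannot be given to 1 copy, and how the authors' counting treated reads that map to several places is not given in the sources used here, so the split between copies is uncertain. Trim75 has no such near copy among these genes.

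RefSeq promoter windows (GRCm38.p6) were found for 2 of the 4 genes, Trim43a and Trim75, of which Trim75 alone was called higher in Dux OE. The 250 bases before each start are given in the sense of the gene, at chr9:88580641-88580890 (plus strand) for Trim43a and chr8:64987645-64987894 (minus strand) for Trim75. RefSeq starts Trim75 downstream of the start in the count table, so the 2 overlap and part of that window lies within the gene as counted. Capitals mark TGATT or AATCA, part of the known mouse Dux motif, and TAAT or ATTA, the core that many homeodomains bind.

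Trim43a: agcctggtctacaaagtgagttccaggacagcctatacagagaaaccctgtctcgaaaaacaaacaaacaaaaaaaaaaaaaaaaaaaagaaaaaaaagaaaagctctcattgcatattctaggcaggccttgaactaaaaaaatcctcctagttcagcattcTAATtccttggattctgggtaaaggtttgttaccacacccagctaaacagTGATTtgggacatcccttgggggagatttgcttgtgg
Trim75: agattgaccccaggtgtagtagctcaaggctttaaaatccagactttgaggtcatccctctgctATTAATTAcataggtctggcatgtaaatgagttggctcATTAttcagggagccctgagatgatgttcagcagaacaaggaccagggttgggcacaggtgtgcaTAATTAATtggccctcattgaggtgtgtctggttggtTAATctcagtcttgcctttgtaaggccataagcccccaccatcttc

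Searched on both strands, neither window held GATTCAATC, found in 0.14% of 32851 promoters of the same length, or GATTNAATC, found in 0.25%. TGATT, which overlaps both of these motifs in the letters GATT, occurred 1 time in Trim43a and 0 times in Trim75, against 33.7% of promoters with at least 1 match. TAAT, searched after the sequences were seen, had 1 match in Trim43a and 8 matches, overlaps included, in Trim75, and 1.1% of promoters held at least 8. These letter matches are a description of the windows and say nothing of binding.

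The libraries held between 14401452 and 39402840 counted reads, so that 3 counts correspond to 0.0796 to 0.226 CPM, the counts scaled by normalized library size. The listed Dux copy, Duxf3, rose in every induction and had 55 and 48 counts in Dux OE against 3 and 0 in ESC. It was lower with knockdown, at 16 and 6 counts in Dux KD RA against 49 and 59 in RA, and at 1 and 0 when knockdown was combined with PlaB or with Zscan4 OE. In Dux R70A OE Duxf3 had 0 counts in both libraries, so the table does not show the mutant transgene and that label cannot be checked with this gene. Whether the Duxf3 counts in Dux OE include the wild-type transgene cannot be told either. They came to 4.01 and 3.24 CPM, under the 9.25 and 8.21 CPM of PlaB, where no transgene was switched on. In bulk RNA, more cells in a 2C-like state and more transcript in each such cell cannot be told apart, and this holds for every level below.

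Trim75 moved over the widest range of the 4 genes and was near the floor in unstimulated cells. It had 3 and 5 counts in the ESC libraries and 4 and 4 in DMSO, which correspond to 0.260 ± 0.104 CPM (SD, n = 2) and 0.223 ± 0.00536 CPM. PlaB gave the highest level, 1671 and 1491 counts or 74.3 ± 9.39 CPM. Dux OE came next with 471 and 450 counts, 32.4 ± 2.78 CPM. RA reached 144 and 132 counts, 6.25 ± 0.138 CPM, and Zscan4 OE 51 and 36 counts, 2.63 ± 0.951 CPM. In each of these 4 inductions both libraries lay above both control libraries. Ordered by their means, the 13 groups formed a ladder in which the libraries of neighbouring groups did not overlap at 7 of the 12 steps. The steps that overlapped were RA with SE KO PlaB, Dux KD RA with Zscan4 OE, ESC with DMSO, and each of the 3 lowest groups with the next.

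Trim43a covered a smaller range and followed another order. It had 4 and 5 counts in ESC (0.291 ± 0.0595 CPM) and 4 and 5 in DMSO (0.251 ± 0.0334 CPM). RA raised it to 69 and 80 counts, 3.38 ± 0.485 CPM, and PlaB to 70 and 74 counts, 3.37 ± 0.0231 CPM. Thus RA and PlaB, which differed widely for Trim75, gave overlapping levels of Trim43a. Zscan4 OE gave 25 and 30 counts, 1.62 ± 0.00816 CPM. Dux OE gave 9 and 5 counts, 0.497 ± 0.225 CPM, and its lower library barely cleared the higher ESC library, at 0.338 against 0.333 CPM. Of the 12 steps between groups ordered by mean, 4 had no overlap of libraries, and the highest groups, SE KO PlaB, Dux KD RA, RA and PlaB, overlapped step by step.

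Trim43b and Trim43c were low throughout. Trim43c stayed between 6 and 36 counts in every library and its group means between 0.444 and 1.04 CPM, while Trim43b ran from 4 to 56 counts with group means from 0.415 to 2.63 CPM. For both genes each of the 12 steps between neighbouring groups overlapped. Per length, the highest group mean was 21.3 CPM per kb of exon for Trim75 in PlaB, 2.39 for Trim43a in SE KO PlaB, 1.16 for Trim43b in Dux KD Zscan4 OE and 0.522 for Trim43c in PlaB.

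**Figure D1:**
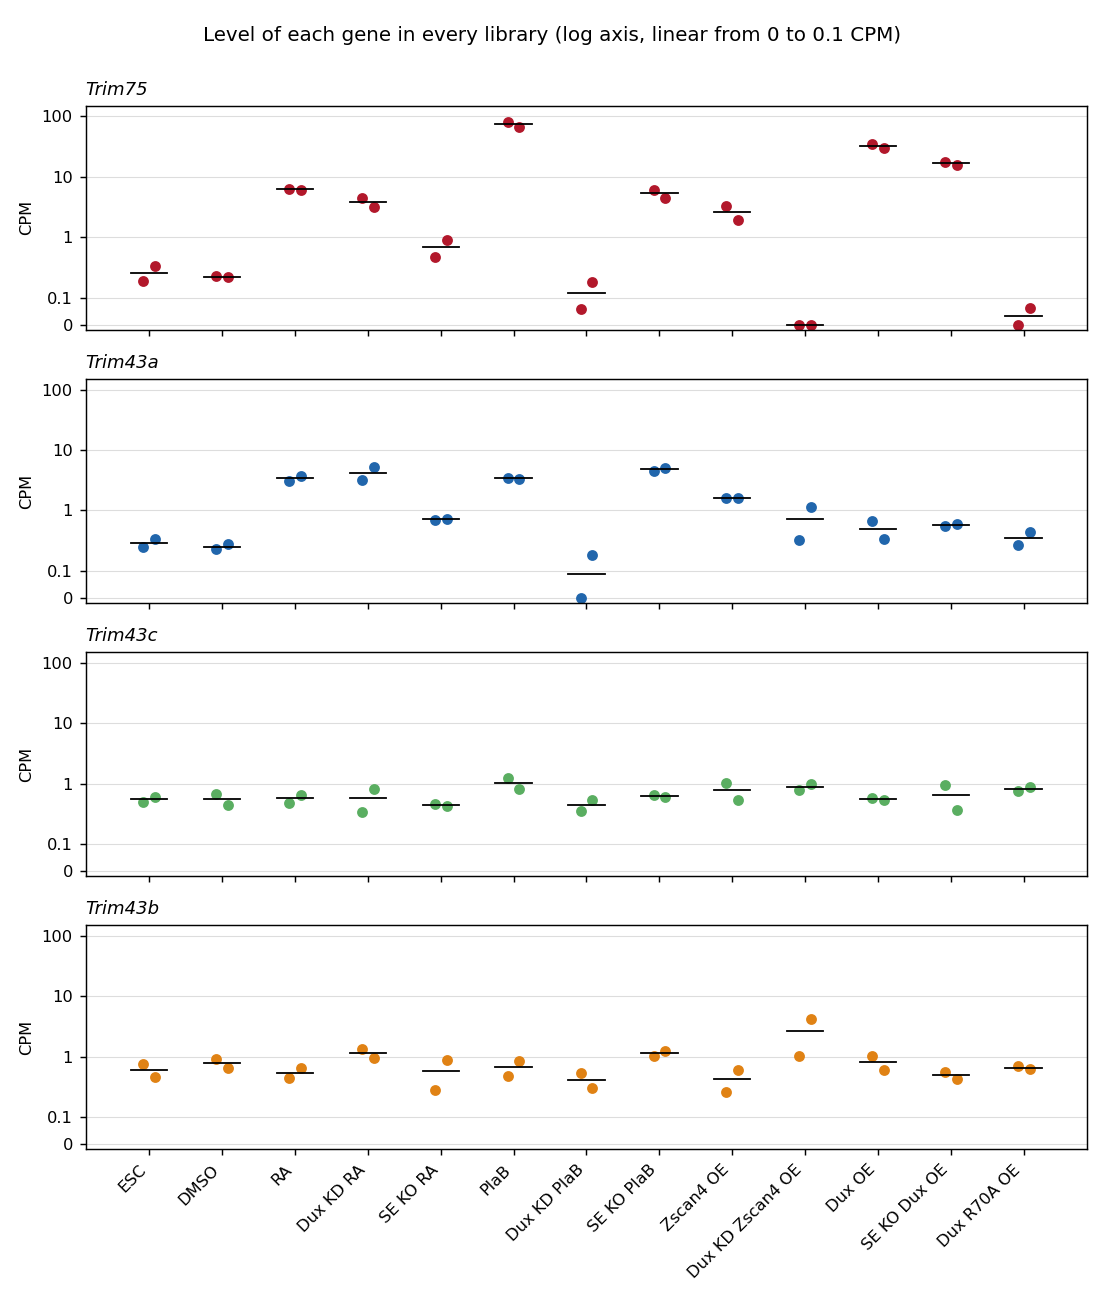
Level of Trim75, Trim43a, Trim43c and Trim43b in CPM (log axis that is linear between 0 and 0.1) in the 13 groups. Each point is 1 library and each bar the mean of 2. Trim75 spans from 0 to 80.9 CPM and is highest in PlaB and Dux OE, Trim43a is highest in SE KO PlaB, Dux KD RA, RA and PlaB, and the other copies stay low.

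The first question was which of these genes the 4 inductions raised. A gene was called when edgeR's quasi-likelihood test gave a Benjamini-Hochberg adjusted p under 0.05 and the log2 fold change was 1 or more in size. By this rule, 2 of the 4 genes, Trim75 and Trim43a, were called higher in RA than in DMSO, where 20.6% of all tested genes were called higher. The same pair was called higher in PlaB against DMSO (background 32.3%) and in Zscan4 OE against ESC (background 7.25%). In Dux OE against ESC only Trim75 was called higher, against a background of 7.38%. DMSO and ESC themselves differed in none of the 4 genes by edgeR, at an unadjusted p under 0.05 or with DESeq2 either, with 8.32% of genes called higher and 7.91% lower.

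Trim75 rose by a log2 fold change of 8.34 (SE 0.303, 324-fold) in PlaB with an adjusted p of 8.59e-19 in edgeR. In Dux OE it rose by 6.94 (SE 0.321, 123-fold, adjusted p = 2.66e-15, edgeR). The rises were smaller in RA, at 4.77 (SE 0.378, 27.2-fold, adjusted p = 4.38e-11, edgeR), and in Zscan4 OE, at 3.30 (SE 0.459, 9.82-fold, adjusted p = 2.60e-06, edgeR). The control groups held 8 counts each, so the counting error of the folds is wide: the ratio of PlaB to DMSO was 332 with an exact 95% counting interval of 168 to 770, and that of Dux OE to ESC 125 with an interval of 63.4 to 291. Such intervals cover counting error only.

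Trim43a rose by a log2 fold change of 3.72 (SE 0.470, 13.2-fold, adjusted p = 1.41e-07, edgeR) in RA and by 3.72 (SE 0.471, 13.1-fold, adjusted p = 6.68e-08, edgeR) in PlaB. In Zscan4 OE it rose by 2.46 (SE 0.531, 5.50-fold, adjusted p = 0.000509, edgeR). In Dux OE its log2 fold change was 0.75 (SE 0.675, adjusted p = 0.465, edgeR), and the ratio of summed counts was 1.69 with an exact 95% counting interval of 0.683 to 4.44. Trim43b and Trim43c were called in none of the 4 inductions, with log2 fold changes from -0.52 to 0.88. With library size alone as the normalization, Trim43c was called higher in PlaB, at 1.14 (adjusted p = 0.0425, edgeR), and its ratio of summed counts was 1.85 with an exact 95% counting interval of 1.07 to 3.31.

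Since a call in 1 induction and not in another does not show a difference, the inductions were also compared directly, by contrasts that were added after the values were seen. The effect of PlaB on Trim43a exceeded that of Dux OE by 2.97 on the log2 scale (SE 0.908, adjusted p = 0.00621, edgeR). The effect of RA exceeded it by 2.97 (SE 0.908, adjusted p = 0.00969) and that of Zscan4 OE by 1.71 (SE 0.488, adjusted p = 0.00606). Without ESC replicate 2 the differences for PlaB and RA no longer passed, with adjusted p = 0.0582 and 0.0759 in edgeR, and without Dux OE replicate 2 that for Zscan4 OE no longer passed, with adjusted p = 0.0903. For Trim75, Dux OE stood higher among the inductions than it did for Trim43a. The rise of Trim75 was smaller in Zscan4 OE than in Dux OE by a log2 difference of -3.64 (SE 0.218, adjusted p = 8.69e-13, edgeR) and smaller in RA by -2.17 (SE 0.839, adjusted p = 0.0398), while PlaB and Dux OE differed by 1.40 (SE 0.814, adjusted p = 0.142). The RA difference rested on few control counts and was lost in edgeR without ESC replicate 1, Dux OE replicate 1, RA replicate 2 or either DMSO replicate, with adjusted p between 0.0531 and 0.135. Differences that passed were common in the whole table, at 60.9% of tested genes for PlaB minus Dux OE, 41.8% for RA minus Dux OE and 39.8% for Zscan4 OE minus Dux OE.

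**Figure D2:**
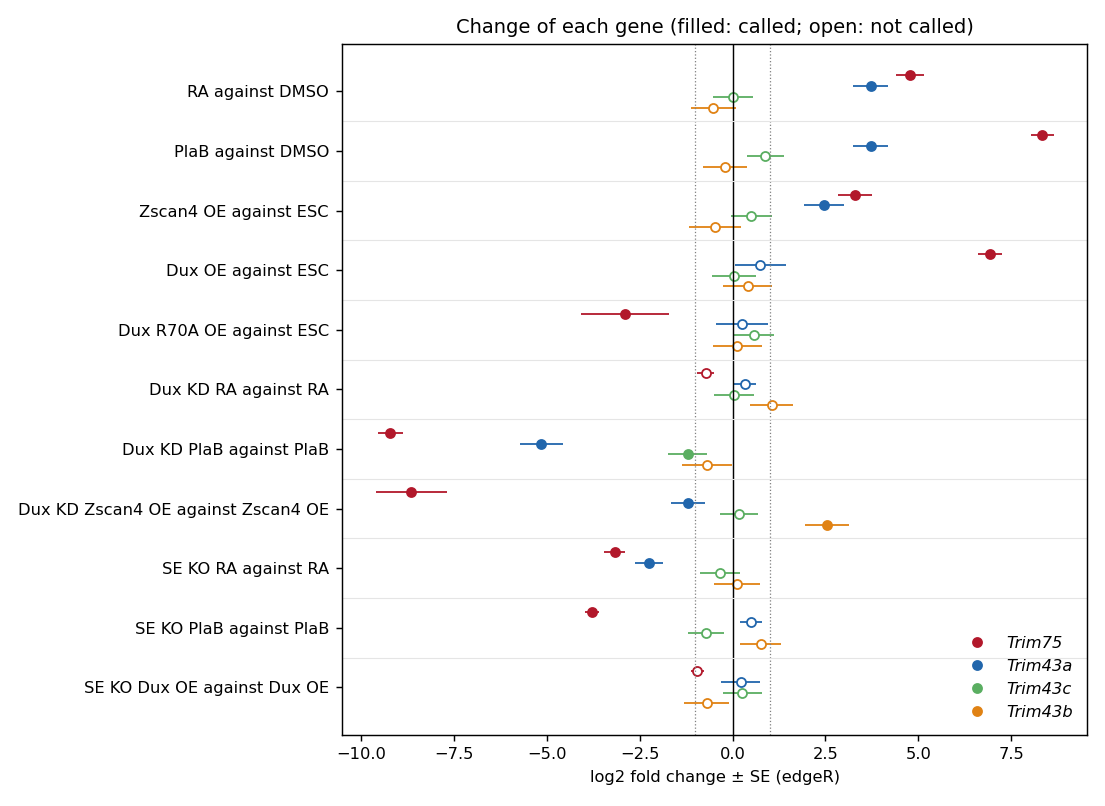
Log2 fold change with its standard error (edgeR) of each gene in 11 comparisons. Filled points are called at an adjusted p under 0.05 and a log2 fold change of at least 1 in size (dotted lines), open points are not. Trim75 and Trim43a are both called in RA, PlaB and Zscan4 OE, Trim75 alone in Dux OE, and the SE KO lowers both genes in RA but only Trim75 in PlaB.

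The Dux R70A mutant was compared with wild-type Dux to ask whether the induced genes depend on the condensates. Trim75 had 0 and 1 counts in Dux R70A OE against 471 and 450 in Dux OE, and the groups were far apart. It was the 1 gene of the 4 called lower, against 7.51% of tested genes, with an adjusted p of 4.73e-16 in edgeR and a ratio of summed counts of 1116 (exact 95% counting interval 200 to 44121). Against untreated ESC, Trim75 was also called lower (background 6.72%), with 8 counts over the ESC group and 1 over Dux R70A OE, a ratio of 8.90 (interval 1.19 to 395) and an adjusted p of 0.0497 in edgeR. This second call was lost with DESeq2, where the adjusted p was 0.0814, with RLE normalization, and in edgeR without ESC replicate 1, ESC replicate 2 or Dux R70A OE replicate 1, where the adjusted p was 0.0561, 0.222 and 0.279. Trim43a had 5 and 7 counts in Dux R70A OE, and its log2 fold change was 0.26 (SE 0.698) against ESC and -0.49 (SE 0.636) against Dux OE. Neither passed, with adjusted p = 0.806 and 0.580 in edgeR.

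The Dux knockdown asked whether the other inductions act through Dux, and its effect on these genes depended on the induction. In Dux KD RA, Trim75 kept 77 and 53 counts against 144 and 132 in RA, or 3.77 ± 0.919 CPM against 6.25 ± 0.138 CPM. In Dux KD PlaB it had 1 and 3 counts against 1671 and 1491. In Dux KD Zscan4 OE it had 0 counts in both libraries against 51 and 36. The libraries with and without knockdown did not overlap in any of these pairs.

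None of the 4 genes was called in Dux KD RA against RA, where 4.53% of genes were called lower and 6.41% higher. Trim75 fell short of the fold threshold there, with a log2 fold change of -0.72 (SE 0.223, adjusted p = 0.0120, edgeR). DESeq2 called none of the 4 genes either, and Trim75 was the 1 gene with an unadjusted p under 0.05 in edgeR. Without Dux KD RA replicate 1 Trim75 just reached the fold threshold and was called (adjusted p = 0.0110, edgeR). Against DMSO, Trim75 and Trim43a were still called higher in Dux KD RA (2 of 4 genes, background 22%), with log2 fold changes of 4.04 (SE 0.420) and 4.04 (SE 0.466). Duxf3 itself was only partly lowered in Dux KD RA, to 0.636 ± 0.400 CPM from 2.45 ± 0.417 CPM.

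In Dux KD PlaB against PlaB, 3 of the 4 genes were called lower, where 28.8% of all genes were. Trim75 had a ratio of summed counts of 624 (exact 95% counting interval 243 to 2291, adjusted p = 9.88e-19, edgeR). Trim43a had 0 and 3 counts against 70 and 74, a ratio of 37.9 (interval 12.7 to 186, adjusted p = 8.44e-09, edgeR). Trim43c fell 2.30-fold (SE of the log2 value 0.528, adjusted p = 0.0422, edgeR), from 26 and 18 counts to 6 and 9. The Trim43c call was lost without PlaB replicate 1 (adjusted p = 0.291) or either Dux KD PlaB replicate (0.232 and 0.0851), without a low-count filter (0.112) and with DESeq2 (0.0697). Against DMSO none of the 4 genes was called in Dux KD PlaB by edgeR, with 7.53% of genes called higher and 4.14% lower, and none had an unadjusted p under 0.05 or a call with DESeq2.

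In Dux KD Zscan4 OE against Zscan4 OE, the fall of Trim75 had an exact 95% lower counting limit of 19.6-fold. Taken against a floor of 3 counts over the group, Trim75 was 24.6-fold lower, with an adjusted p of 1.20e-07 in edgeR. With Trim43a it made 2 of 4 genes called lower, against 5.35% of all genes. Trim43a had 5 and 15 counts against 25 and 30, 2.29-fold lower (SE of the log2 value 0.455, adjusted p = 0.0442, edgeR). That call was lost with DESeq2 (adjusted p = 0.0754), without either Zscan4 OE replicate (0.111 and 0.136) and without Dux KD Zscan4 OE replicate 1 (0.450). Trim43b went the other way and was called higher (1 of 4 genes, background 5.78%), with a log2 fold change of 2.54 (SE 0.592, adjusted p = 0.00148, edgeR), but it had 16 counts in replicate 1 and 56 in replicate 2. Without Dux KD Zscan4 OE replicate 2 its log2 fold change was 1.22 and its adjusted p 0.197. Against ESC, Trim75 was called lower (background 2.55%) and Trim43b higher (background 5.57%). Both of these calls were lost when single libraries were left out, that of Trim75 without ESC replicate 2 or either Dux KD Zscan4 OE replicate (adjusted p = 0.102, 0.105 and 0.0905) and that of Trim43b without ESC replicate 2 or Dux KD Zscan4 OE replicate 2 (0.0730 and 0.453).

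The knockdown effect differed between inductions for 2 of the 4 genes. It was stronger in PlaB than in RA by -8.49 on the log2 scale for Trim75 (SE 0.466, adjusted p = 1.09e-14, edgeR) and by -5.47 for Trim43a (SE 0.688, adjusted p = 8.26e-08), in a contrast where 65.9% of all tested genes passed. It was stronger in Zscan4 OE than in RA by -7.93 for Trim75 (SE 1.15, adjusted p = 9.73e-06, edgeR) and by -1.52 for Trim43a (SE 0.552, adjusted p = 0.0388), where 29% of genes passed. The Trim43a value of this last contrast was lost without either RA replicate (adjusted p = 0.103 and 0.0501), either Zscan4 OE replicate (0.0820 and 0.0942), Dux KD RA replicate 2 (0.201) or Dux KD Zscan4 OE replicate 1 (0.306), and with DESeq2 (0.0733).

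In RA itself Trim43a was not called with knockdown. It had 55 and 90 counts in Dux KD RA, 4.23 ± 1.52 CPM, against 69 and 80 in RA, and the 2 groups overlapped. Its log2 fold change was 0.32 (SE 0.310, adjusted p = 0.448, edgeR), and the ratio of summed counts was 1.25 with an exact 95% counting interval of 0.988 to 1.58.

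The super-enhancer knockout asked whether that element is needed for the induced genes, and here Trim75 and Trim43a parted. In SE KO RA, Trim75 had 10 and 21 counts against 144 and 132 in RA, and Trim43a had 15 and 17 against 69 and 80. In SE KO PlaB, Trim75 had 142 and 97 counts against 1671 and 1491, whereas Trim43a had 103 and 108 against 70 and 74. In CPM both SE KO PlaB libraries of Trim43a, at 4.47 and 5.04, lay above both PlaB libraries, at 3.36 and 3.39.

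In SE KO RA against RA, 2 of the 4 genes were called lower, against 11% of all genes. Trim75 fell by 3.18 on the log2 scale (SE 0.286, 9.03-fold, adjusted p = 1.61e-09, edgeR) and Trim43a by 2.24 (SE 0.374, 4.73-fold, adjusted p = 1.87e-05, edgeR). Both calls held without replicate 1, the library whose genotype label reads WT. Against DMSO both genes were still called higher in SE KO RA (2 of 4, background 17.3%), by 1.59 for Trim75 (SE 0.572, adjusted p = 0.0207, edgeR) and 1.48 for Trim43a (SE 0.581, adjusted p = 0.0338, edgeR). These last calls rested on few counts, and that of Trim75 was lost without either DMSO replicate (adjusted p = 0.0801 and 0.0937) or SE KO RA replicate 2 (0.259), that of Trim43a without any of the 4 libraries (0.0758 to 0.146).

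In SE KO PlaB against PlaB only Trim75 was called lower, against 26.1% of all genes. It fell by 3.79 on the log2 scale (SE 0.190, 13.9-fold, adjusted p = 9.71e-16, edgeR). The log2 fold change of Trim43a was 0.49 (SE 0.303, adjusted p = 0.148, edgeR). Against DMSO both genes were called higher in SE KO PlaB (2 of 4, background 17.1%), by 4.55 for Trim75 (SE 0.387) and 4.21 for Trim43a (SE 0.456). The knockout effect on Trim43a differed between PlaB and RA by 2.73 (SE 0.483, adjusted p = 1.76e-05, edgeR), where 63% of genes passed, while for Trim75 the difference was -0.62 (SE 0.393, adjusted p = 0.178).

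In SE KO Dux OE, Trim75 had 670 and 478 counts in deeper libraries, 16.7 ± 1.52 CPM against 32.4 ± 2.78 CPM in Dux OE, and the groups did not overlap. None of the 4 genes was called in that comparison by edgeR or DESeq2 (3.84% of genes lower, 2.46% higher), since the log2 fold change of Trim75 was -0.95 (SE 0.169, adjusted p = 0.000179, edgeR). Trim75 was the 1 gene with an unadjusted p under 0.05. Without SE KO Dux OE replicate 1 its log2 fold change was -1.05 (adjusted p = 0.00165), and without Dux OE replicate 2 it was -1.01 (adjusted p = 0.00184), so that it passed. Against ESC Trim75 remained called higher (1 of 4 genes, background 9.02%), by 5.99 (SE 0.335). The knockout effect on Trim75 in Dux OE minus that in RA was 2.22 (SE 0.345, adjusted p = 1.08e-05, edgeR), in a contrast where 41.3% of genes passed. For Trim43a the difference was 2.46 (SE 0.638, adjusted p = 0.00284, edgeR). Trim43a was not called higher in Dux OE to begin with, and it had 0.573 ± 0.0222 CPM in SE KO Dux OE against 0.497 ± 0.225 CPM in Dux OE, whereas it was called lower in SE KO RA.

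Duxf3 moved together with Trim75 across the libraries. Over the 26 libraries, which share their groups, the Pearson r of log2 CPM between Duxf3 and Trim75 was 0.95, and that between Duxf3 and Trim43a was 0.65. Trim43a was at 0.656 and 0.338 CPM in the Dux OE libraries, where Duxf3, whose counts may leave out the transgene, was at 4.01 and 3.24 CPM. In Dux KD RA Trim43a was at 3.16 and 5.30 CPM, where Duxf3 was at 0.919 and 0.354 CPM. In SE KO PlaB, Duxf3 had 1.87 ± 0.319 CPM against 8.73 ± 0.734 CPM in PlaB. In other groups Duxf3 and Trim43a moved together. Both were higher in RA, PlaB and Zscan4 OE than in their controls, and lower in Dux KD PlaB than in PlaB. Both were also lower in SE KO RA than in RA, Duxf3 with 2 and 10 counts against 49 and 59. In SE KO Dux OE, Duxf3 was at 1.46 and 1.28 CPM, under both Dux OE libraries.

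**Figure D3:**
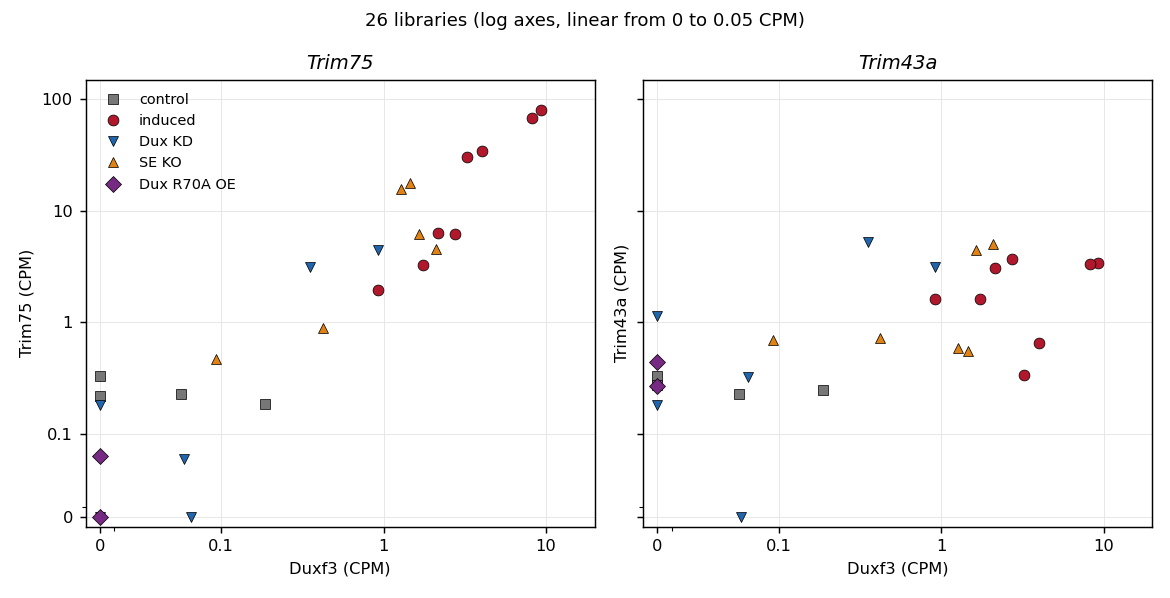
Trim75 (left) and Trim43a (right) against Duxf3 in the 26 libraries, in CPM on log axes that are linear between 0 and 0.05. Symbols mark untreated and DMSO controls, the 4 inductions, Dux KD, SE KO and Dux R70A OE. Trim75 rises along with Duxf3, with the highest libraries in PlaB, whereas Trim43a reaches 3.16 and 5.30 CPM in Dux KD RA and stays under 0.66 CPM in Dux OE.

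The copies of Trim43 changed in their proportions. On the scale of CPM per kb of exon, Trim43a made up 21.2% of the 3 copies in ESC and 16.8% in DMSO, with Trim43b and Trim43c sharing the rest about evenly. In RA its share was 76.4%, in PlaB 67.5% and in Zscan4 OE 58.3%, whereas in Dux OE it was 28.1%. It was 72.9% in Dux KD RA and 74.4% in SE KO PlaB, but 42.6% in SE KO RA and 18.6% in Dux KD Zscan4 OE. Such shares rest on 32 to 290 counts per group for the 3 copies together and inherit the doubt about reads that the copies share.

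When the 3 copies were summed into 1 gene before the fit, which removes the split between copies, the sum rose by 1.49 on the log2 scale (SE 0.345, adjusted p = 0.000537, edgeR) in RA and by 1.67 (SE 0.342, adjusted p = 8.72e-05) in PlaB. It changed by 0.97 in Zscan4 OE (SE 0.386, adjusted p = 0.0492), under the fold threshold, and by 0.36 in Dux OE (SE 0.421, adjusted p = 0.581). The sum fell by 2.41 in Dux KD PlaB against PlaB (SE 0.377, adjusted p = 2.29e-06) and by 1.36 in SE KO RA against RA (SE 0.328, adjusted p = 0.00126). In Dux KD Zscan4 OE against Zscan4 OE it was 0.55 (SE 0.337, adjusted p = 0.224), with the sign opposite to that of Trim43a alone. The induction difference of RA minus Dux OE was 1.13 for the sum (SE 0.549, adjusted p = 0.103) and that of Zscan4 OE minus Dux OE 0.60 (SE 0.377, adjusted p = 0.218), so neither passed.

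**Figure D4:**
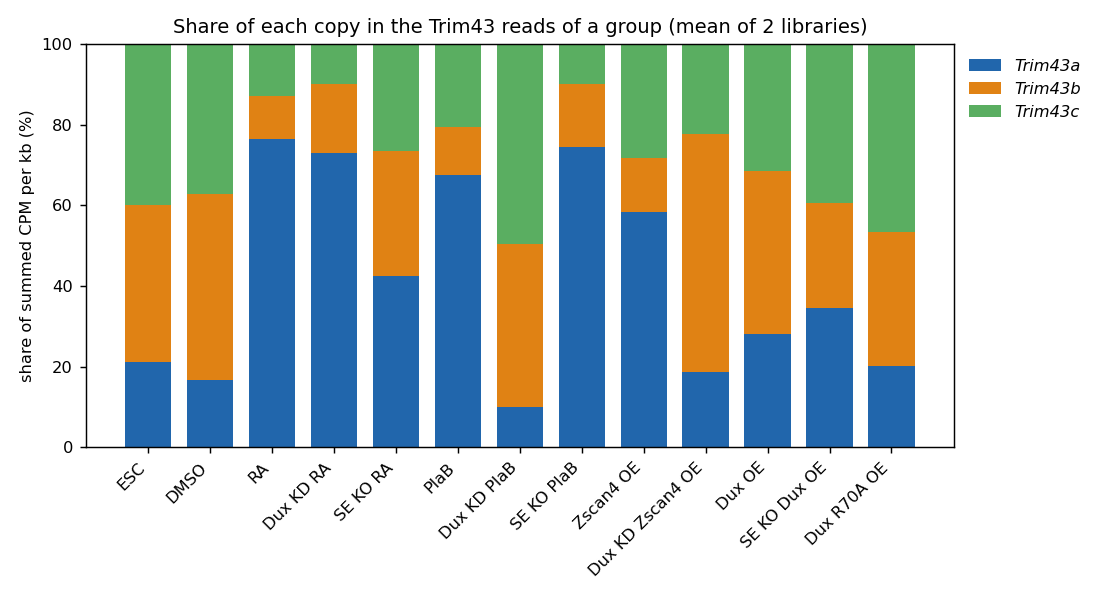
Share of Trim43a, Trim43b and Trim43c in the summed CPM per kb of exon of the 3 copies in each group (mean of 2 libraries, in percent, no error shown). Trim43a holds 58.3% to 76.4% in Zscan4 OE, PlaB, SE KO PlaB, Dux KD RA and RA, and 16.8% to 28.1% in DMSO, Dux R70A OE, ESC and Dux OE.

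The nearest tested genes on either side show what the surrounding loci did. Before and beyond mean lower and higher chromosome coordinates here, whatever the strand of the gene. Zfp949, a zinc finger gene 9.8 kb before Trim43a, and Tmem192, a lysosomal membrane protein gene 11.8 kb before Trim75, were called in none of the 19 comparisons by edgeR. On the other side of Trim43a, 9430037G07Rik, called in 1 of the 19, had a log2 fold change of -1.13 (SE 0.551, adjusted p = 0.0646, edgeR) in PlaB against DMSO. Mthfs, which encodes a folate enzyme and lies 117.8 kb beyond Trim43b, rose by 2.69 (SE 0.302, adjusted p = 6.94e-09, edgeR) in PlaB and had 0.09 (SE 0.409, adjusted p = 0.916) in Dux OE. Gm19498, 8.3 kb before Trim43b, fell by 2.57 (SE 0.958, adjusted p = 0.0174, edgeR) in PlaB, with 0 and 4 counts against 11 and 10 in DMSO. Gm37614, 12.3 kb before Trim43c, fell there by 1.88 (SE 0.812, adjusted p = 0.0383, edgeR), with 1 and 4 counts against 8 and 8. Both falls rest on few reads. The gene 9330159M07Rik overlaps Trim43c, and it fell by 2.48 (SE 0.256, adjusted p = 1.49e-09, edgeR) in PlaB. The strand setting of the counting is not given in the sources used here, so reads of these overlapping genes may not be told apart.

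Trim60, the other neighbour of Trim75 at 11.5 kb, and Trim61 had, after Trim75, the highest fitted log2 fold changes of the TRIM genes in Dux OE against ESC, but that of Trim61, 5.79 (SE 1.77), depends on the prior count, and Trim67, named after its value was seen, had 5.04 (SE 0.921). Trim60 had 32 and 36 counts in Dux OE against 0 and 1 in ESC, a ratio of 74.1 with an exact 95% counting interval of 12.9 to 2968 (adjusted p = 1.37e-06, edgeR). Unlike Trim75, it stood above ESC with the Dux R70A mutant as well, with 16 and 13 counts, and in DMSO, with 16 and 26. Its adjusted p was 0.000224 for Dux R70A OE and 3.26e-05 for DMSO, both against ESC. Trim61 had 0 counts in both ESC libraries, 3 and 7 in Dux OE, 11 and 11 in Dux R70A OE and 12 and 13 in DMSO. Taken against a floor of 3 counts over the ESC group, Trim61 was 3.63-fold higher in Dux OE, 6.59-fold in Dux R70A OE and 7.22-fold in DMSO. The exact 95% lower counting limits of these ratios were 2.44, 4.93 and 5.45. Trim75 had 3 and 5 counts in those ESC libraries and was the 1 gene of the 3 not above ESC in Dux R70A OE. Trim60 and Trim61 stood above ESC in DMSO as well, where no Dux transgene was switched on. The part of Dux or its mutant in their higher counts was not tested.

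Among the other 53 tested TRIM genes, 7 were called higher and 0 lower in Dux OE against ESC by edgeR, where 7.38% of all tested genes were called higher and 2.12% lower. In Zscan4 OE 4 were called higher and 2 lower, where the shares of all genes were 7.25% and 4.39%. In RA 13 were called higher and 3 lower, beside 20.6% and 10.4% of all genes, and in PlaB 15 higher and 19 lower, beside 32.3% and 26.6%. Their median log2 fold change was -0.05 in Dux OE and 0.16 in PlaB, beside medians of 0.00 and 0.22 over all tested genes. The 2C genes, a list of 42 of which 39 were tested, were chosen with earlier results of these data known. Of these, 39 were called higher in Dux OE, 37 in PlaB, 34 in RA and 33 in Zscan4 OE, with median log2 fold changes of 6.93, 8.54, 6.14 and 3.11. The medians over all tested genes were 0.00, 0.22, 0.10 and 0.00. Zscan4c, which marks the 2C-like state, rose by 10.72 (SE 0.152) in PlaB and 7.09 (SE 0.128) in Dux OE, next to 8.34 and 6.94 for Trim75. PlaB and RA were set against DMSO here, and Dux OE and Zscan4 OE against ESC. These controls differed for the 2C list. In DMSO against ESC, 22 of the 39 genes were called lower by edgeR, beside 7.91% of all genes, with a median log2 fold change of -2.27. Zscan4c had 31 and 24 counts in DMSO and 92 and 92 in ESC, so its rises against the 2 controls are not on 1 scale.

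Across all 26 libraries the genes most like Trim75, by Pearson r of log2 CPM among 18643 genes with a group mean of at least 1 CPM, were Gm2035 (r = 0.99), BC080695 (0.98), Zscan4-ps2 (0.98), Gm2022 (0.98) and Gm21319 (0.98). BC080695 and Gm2022 belong to the 2C list. The genes most like Trim43a were Msx2 (r = 0.89), a homeobox gene, Lpar1 (0.87), a lysophosphatidic acid receptor gene, Gm1141 (0.87), Taf7l (0.87), which encodes a germ-cell variant of a general transcription factor subunit, and Tchh (0.86). No gene of the 2C list was among the latter. Taf7l had 27.7 and 27.5 CPM in RA, 1.82 and 2.50 CPM in Dux OE and 1.37 and 2.13 CPM in ESC. The r between Trim43a and Trim75 themselves was 0.59. Libraries of 1 group are not independent points, and these values describe likeness across this set of groups only.

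The markers of other cell states moved with some groups. The summed level of 12 pluripotency markers lay between 4100 and 10497 CPM in all libraries, and none of these markers was at 0 in any group. The summed level of 12 primitive endoderm markers was 1403 to 1491 CPM in RA, 923 to 929 in Dux KD RA and 1004 to 1223 in SE KO PlaB, the 3 groups with the highest mean Trim43a. It was 864 to 868 CPM in SE KO RA, where Trim43a was at 0.709 ± 0.0151 CPM. In PlaB, where Trim43a overlapped its level in RA, it was 254 to 274 CPM, beside 358 to 377 CPM in DMSO, and Foxa2 was at 0 in both groups. Of the 12 markers, 4 were called higher and 4 lower in PlaB against DMSO by edgeR, with a median log2 fold change of -0.14 beside 0.22 over all tested genes. Of 7 fibroblast markers, Lum was at 0 in all groups but SE KO Dux OE, where the summed level was highest at 116 to 117 CPM. The summed level of 7 neural markers lay between 110 and 323 CPM and was highest in ESC. The part of such cells in the levels of Trim43a and Trim75 was not tested.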

How the data were processed

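The data were poly(A) RNA-seq libraries of mouse R1 ESCs, 2 in each of 13 groups, 26 in all, grouped by the titles and treatment labels. The authors deposited 1 table of raw counts per gene. The submitters' processing notes name FastQC, Trimmomatic, STAR, featureCounts, DESeq2 and the build mm10. The strand setting and the handling of reads with several alignments are not given in the sources used here.

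From these counts, CPM values were computed on TMM-normalized library sizes, and 1 model of all 26 libraries was fitted with edgeR 4.0.16 (R 4.3.3, limma 3.58.1) after filterByExpr, which kept 20953 of 55291 genes. The quasi-likelihood F-test was used with a prior count of 0.125 and Benjamini-Hochberg adjustment over all tested genes. Called genes had an adjusted p under 0.05 and a log2 fold change of at least 1 in size, and differences between comparisons passed at an adjusted p under 0.05. The scripts were tested on simulated counts. Intervals of count ratios are exact at 95% and cover counting error only. Fold changes against a group with 0 counts were taken against a floor of 3 counts over the group and are not lower limits.

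Alternatives were RLE normalization, library size alone, no filter, DESeq2 1.42.0, a replicate block, a prior count of 2, no fold threshold, separate fits per pair of groups, ESC in place of DMSO as control and the reverse, leaving out each library and summing the Trim43 copies. Same-numbered libraries did not deviate together, with r between -0.0473 and 0.0237, so the numbers were not taken to pair them. Replicates of each group differed by more than sampling noise, with chi-square per degree of freedom from 1.55 to 30.2. Single genes were named as follows: the 4 genes, Duxf3 and Zscan4c as references, the 5 genes most like each of the 4, the nearest tested gene on each side, Trim60 and Trim61, and the 3 TRIM genes with the largest fitted rise in Dux OE. The genes and lists were chosen with earlier results of these data known. The direct comparisons of inductions and the TAAT motif were added after the values were seen, as was the naming of Taf7l's levels.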

Additional observations from a re-analysis of the deposited data

Results flagged for a closer look

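In 12 cases the effect on Trim75 or Trim43a differed between conditions by a test of the difference itself in edgeR. The Dux knockdown effect in PlaB minus that in RA was -8.49 on the log2 scale for Trim75 and -5.47 for Trim43a, and the effect in Zscan4 OE minus that in RA was -7.93 for Trim75 and -1.52 for Trim43a. The SE KO effect in Dux OE minus that in RA was 2.22 for Trim75 and 2.46 for Trim43a, and that in PlaB minus that in RA was 2.73 for Trim43a.

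The induction effect minus that of Dux OE was, for Trim43a, 2.97 in PlaB, 2.97 in RA and 1.71 in Zscan4 OE, and for Trim75 -2.17 in RA and -3.64 in Zscan4 OE. These 5 differences share the Dux OE and ESC libraries and were added after the values were seen.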

How the results depend on the processing

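Of 1313 values of single genes under alternatives, 1249 kept their side of the threshold, 53 lost the call, 9 gained one and 2 reversed. A change of sign was counted as reversed only where the value was called in the main fit or the alternative. Values called in neither may have changed sign and are counted as kept. Both reversals came from summing the Trim43 copies, which gave 0.55 in place of the Trim43a fold change for Dux KD Zscan4 OE against Zscan4 OE and 0.15 for the Dux KD effect in Zscan4 OE minus RA. The replicate block left 26 of 26 counts of called genes equal, for example 2 in RA against DMSO and 1 in Dux OE against ESC, and the shared replicate numbers were not taken as pairing.

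The count of the 4 genes called in Dux R70A OE against ESC went from 1 to 0 with RLE normalization, library size alone, DESeq2, the fit of only these groups and the other control, and ranged from 0 to 1 when single libraries were left out. With library size alone the count for RA minus Dux OE was 1 instead of 2, and with DESeq2 that for the Dux KD effect in Zscan4 OE minus RA was 1 instead of 2. Dropping the fold threshold gave 1 instead of 0 for Dux KD RA against RA and for SE KO Dux OE against Dux OE. The fit of only the groups compared gave 1 for Dux KD RA against RA, 1 instead of 3 for Dux KD Zscan4 OE against Zscan4 OE, 0 instead of 2 for Dux KD Zscan4 OE against ESC and 1 instead of 2 for SE KO RA against DMSO, and the other control also gave 1 for the last. In these separate fits Trim75 did not pass the low-count filter in Dux R70A OE against ESC, Dux KD Zscan4 OE against ESC and SE KO RA against DMSO, so it had no value there rather than a lost call. The gene gained in Dux KD RA against RA was Trim43b, at 1.05 (adjusted p = 0.0419, edgeR). For the other changes the cause was not tested.

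Leaving out 1 library gave 0 to 1 called for SE KO Dux OE against Dux OE, for Dux KD RA against RA, for SE KO RA against DMSO and for the PlaB minus Dux OE difference. It gave 0 to 2 for Dux KD Zscan4 OE against ESC, and 1 to 2 for the RA minus Dux OE difference, the Zscan4 OE minus Dux OE difference and the Dux KD effect in Zscan4 OE minus RA. Where an arm then held 1 library, it was assumed to vary like the other groups. Depth limits the low groups, since ESC and DMSO held 8 counts of Trim75 and 9 of Trim43a each, and Dux KD PlaB 4 and 3.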

Other observations

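The low copies had no close match among the other genes. By Pearson r of log2 CPM over the 26 libraries, the gene most like Trim43b was Gm19045 (r = 0.69), followed by Serpinb1b (0.67), Gm37855 (0.65), Gm15893 (0.62) and Atp8b5 (0.61). Those most like Trim43c were Alas2 (r = 0.67), Snord70 (0.67), Gm49979 (0.67), Gm42471 (0.66) and Cfap61 (0.65). Both genes held at most 56 counts in a library, and libraries of a group are not independent points.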
